A study of Mus musculus with 6 samples.

Results

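The genes described here are 35 genes of the skeletal muscle programme, measured in embryonic mouse kidneys that lacked the Wnt receptor Fz4 on a background already lacking Fz8. The set was given as a list, and all 35 were found among the 18193 genes that had at least 1 probe set annotated to that gene alone. Each gene was read on its probe set with the highest mean log2 value over the 6 arrays. Whole kidneys were taken at E13.5, in mid-gestation, from mice of a hybrid C57BL/6, 129X1/SvJ and 129S1/Sv background and hybridised to Affymetrix MOE430.2 arrays. Of the 6 arrays, 3 held Fz4-/-Fz8-/- kidneys (double-null, M1, M2 and M3) and 3 held Fz4+/+Fz8-/- kidneys (Fz8-null, C1, C2 and C3), so the animals of both groups carried no functional Fz8. How many embryos went into an array is not stated in the labels, and p-values therefore measure only the spread between these samples. Fzd4 read 5.29, 4.96 and 3.89 in M1, M2 and M3, against 10.74, 10.86 and 10.93 in C1, C2 and C3, a difference of -6.13 (limma adjusted p = 0.00318) that matches the labelled genotypes.

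Skeletal muscle forms in the embryo from progenitors marked by Pax7. They become myoblasts and then differentiate under the basic helix-loop-helix factors Myf5, Myod1, Myog and Myf6. Differentiated fibres then switch on actins, myosins and troponins in embryonic, slow and fast forms, the acetylcholine receptor of the endplate and the proteins that couple excitation to calcium release. The kidney itself forms no striated muscle, whereas the body wall that lies behind it does, and whether body wall was carried along in dissection was not tested beyond the levels given here for each array. Several of them, among them Actc1, Tnnt2, Tnnc1, Myl4 and Casq2, are also genes of the embryonic heart, and Des is made in smooth muscle too.

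None of the 35 genes differed between the genotypes by the test over all genes. Many contractile genes shared their highest and lowest arrays instead, while the order of the arrays between varied from gene to gene. They read highest in C2, one of the Fz8-null arrays, and lowest in M1, one of the double-null arrays, while M3 lay within the range of the Fz8-null arrays for 26 of the 35 (74.3%, beside 47.0% of all genes). The fast regulatory light chain gene Mylpf was 9.97-fold higher in C2 than in M1 and the actin gene Actc1 6.56-fold. The spread among the 3 Fz8-null arrays was wider than the difference between the genotype means for 28 of the 35 genes (80.0%, beside 61.3% of all genes). The spread among the 3 double-null arrays was wider for 33 (94.3%, beside 82.9% of all genes).

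Promoter windows are printed for some of the genes that read highest in C2. The myogenic factors bind the E-box, written CANNTG, and whether they control these genes here was not tested. The windows run from 250 bases before to 50 bases after the annotated start, 5′ to 3′ on the strand of the gene. They come from RefSeq for build GRCm38.p6, and the set of windows used here covered 27 of the 35 genes. Capitals mark every CANNTG, every CTA and TAG that are 4 bases apart, and every CArG box, on either strand. The CArG box is the element bound by serum response factor. Sites bound by MEF2 have only A or T between CTA and TAG, so the match used here was looser. Myog (chr1:134289754-134290053, plus strand), Mylpf (chr7:127211358-127211657, plus), Actc1 (chr2:114052826-114053125, minus), Acta1 (chr8:123894726-123895025, minus) and Chrna1 (chr2:73580289-73580588, minus) all read highest in C2. Of these, Chrna1 was dim on every array. Ldb3 (chr14:34588632-34588931, minus) is shown beside them because it read highest in M2 on the probe set used, though not on its others.
Myog: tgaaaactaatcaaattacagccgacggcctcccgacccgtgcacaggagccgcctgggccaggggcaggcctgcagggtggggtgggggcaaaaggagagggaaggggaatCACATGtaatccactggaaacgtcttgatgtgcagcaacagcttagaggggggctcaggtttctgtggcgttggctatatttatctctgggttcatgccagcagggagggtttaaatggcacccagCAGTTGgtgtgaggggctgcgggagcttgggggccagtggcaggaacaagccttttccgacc
Mylpf: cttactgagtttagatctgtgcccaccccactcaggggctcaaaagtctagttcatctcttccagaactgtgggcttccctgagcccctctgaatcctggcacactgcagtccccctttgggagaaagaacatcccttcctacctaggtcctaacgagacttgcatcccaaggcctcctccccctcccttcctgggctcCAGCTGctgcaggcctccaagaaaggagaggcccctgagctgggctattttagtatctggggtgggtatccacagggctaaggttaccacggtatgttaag
Actc1: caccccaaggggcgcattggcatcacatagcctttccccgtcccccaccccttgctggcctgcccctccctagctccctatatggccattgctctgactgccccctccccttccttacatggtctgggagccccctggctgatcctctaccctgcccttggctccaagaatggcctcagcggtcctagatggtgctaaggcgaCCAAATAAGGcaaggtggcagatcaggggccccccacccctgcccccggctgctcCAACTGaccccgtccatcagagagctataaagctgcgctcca
Acta1: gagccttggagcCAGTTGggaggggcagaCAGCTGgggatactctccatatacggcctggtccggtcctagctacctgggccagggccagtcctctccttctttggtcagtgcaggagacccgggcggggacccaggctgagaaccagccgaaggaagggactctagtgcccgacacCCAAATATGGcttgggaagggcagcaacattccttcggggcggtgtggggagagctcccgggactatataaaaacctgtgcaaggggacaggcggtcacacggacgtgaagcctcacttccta
Chrna1: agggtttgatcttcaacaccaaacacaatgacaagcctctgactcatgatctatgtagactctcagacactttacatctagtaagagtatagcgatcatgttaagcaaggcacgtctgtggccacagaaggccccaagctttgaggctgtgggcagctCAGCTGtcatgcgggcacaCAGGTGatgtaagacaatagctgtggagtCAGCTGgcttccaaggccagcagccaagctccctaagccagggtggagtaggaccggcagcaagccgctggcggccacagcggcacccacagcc
Ldb3: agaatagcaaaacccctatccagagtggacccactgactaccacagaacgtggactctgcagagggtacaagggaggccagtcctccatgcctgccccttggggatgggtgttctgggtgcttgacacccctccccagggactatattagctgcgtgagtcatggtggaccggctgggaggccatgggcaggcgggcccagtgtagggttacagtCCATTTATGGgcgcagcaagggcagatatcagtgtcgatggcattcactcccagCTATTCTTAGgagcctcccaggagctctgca

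The windows of Myog, Mylpf, Acta1 and Chrna1 each hold at least 1 E-box before the start, and 2 of the 3 in Chrna1 read CAGCTG. Over the 27 windows CANNTG was found in 22 (81.5%), beside 72.1% of all 27025 windows of that length, so the motif is common everywhere. CAGCTG, which is one form of CANNTG, was found in 10 (37.0%), beside 16.1% of all windows. The CArG box was found in 4 (14.8%), those of Actc1, Acta1, Myom1 and Ldb3, beside 1.57% of all windows. CTA and TAG 4 bases apart were found in 4 windows as well, those of Myf5, Ttn, Des and Ldb3, beside 3.70% of all windows. Only in Ttn were all the bases between them A or T, as in a MEF2 site. A match describes these letters and is no evidence of binding in these kidneys.

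Values below are log2 probe-set intensities, normalized between arrays by RMA, the authors' robust multi-array average. No detection calls were used, so a background level was taken from 71 olfactory and vomeronasal receptor genes on the same arrays. Their median was 3.22 and their 95th percentile 5.59. Of the 35 muscle genes 26 exceeded that percentile on at least 1 array. The other 9 were Myf5, Pax7, Neb, Myl2, Chrna1, Chrnd, Rapsn, Cacng1 and Ckm.

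**Figure D1:**
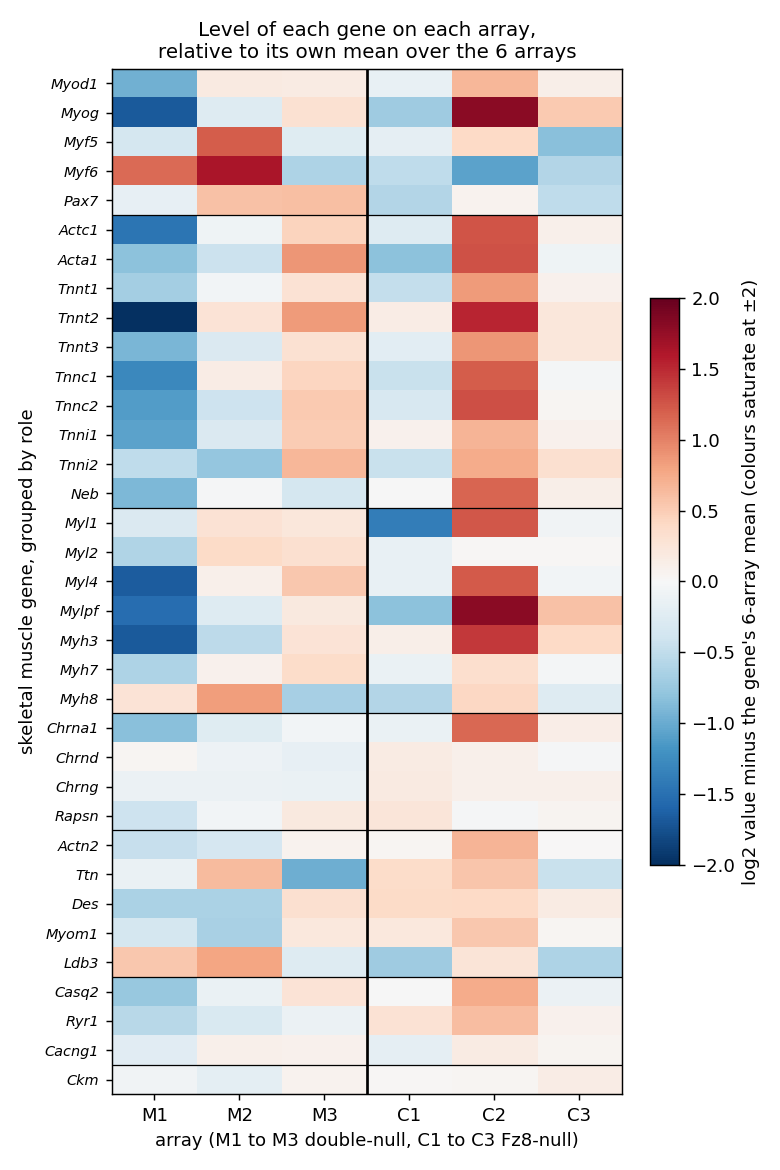
Level of each of the 35 skeletal muscle genes (rows, grouped by role) on each array (columns), as log2 value minus the gene's own mean over the 6 arrays, with double-null arrays left of the line and Fz8-null arrays right of it. Most troponin genes, Actc1, Myl4, Mylpf and Myh3 are reddest in C2 and bluest in M1, and Myf6 and Ldb3 are higher in M1 and M2.

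The myogenic regulators did not move as 1 group. Myog, which commits myoblasts to differentiate, read 4.57, 5.99 and 6.55 in M1, M2 and M3, against 5.54, 8.04 and 6.77 in C1, C2 and C3. C2 was the highest array and M1 the lowest, and the other 4 arrays interleaved. Its means were 5.70 ± 1.02 in double-null and 6.78 ± 1.25 in Fz8-null kidneys (SD, n = 3 each), a difference of -1.08 (SE 0.72, limma adjusted p = 0.457; 95% interval -2.79 to 0.63). Without C2 this difference was -0.45, and without M1 it was -0.51. Myod1, the determination factor that acts before Myog, read 5.09, 6.23 and 6.21 in M1, M2 and M3, against 5.91, 6.71 and 6.16 in C1, C2 and C3. It had the same highest and lowest arrays over a narrower range, with a difference of -0.42 (SE 0.36, limma adjusted p = 0.550), which was -0.04 without M1.

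Myf5, the earliest of the factors to appear in the embryo, read 3.73, 5.29 and 3.84 in M1, M2 and M3, against 3.90, 4.48 and 3.25 in C1, C2 and C3, and stayed below the receptor percentile on every array. Pax7, the marker of muscle progenitors and satellite cells, also stayed below it, at 3.65, 4.39 and 4.41 in M1, M2 and M3, against 3.22, 3.88 and 3.30 in C1, C2 and C3. The groups overlapped for both, with differences of 0.42 (limma adjusted p = 0.661) for Myf5 and 0.68 (limma adjusted p = 0.320) for Pax7. Myf6, a factor of maturing fibres, read 5.18, 5.69 and 3.44 in M1, M2 and M3, against 3.55, 2.99 and 3.47 in C1, C2 and C3. It read higher in M1 and M2 than on the other arrays, but only M2, at 5.69, exceeded the receptor percentile of 5.59. C2 was its lowest array, the reverse of Myog. Its difference of 1.43 (SE 0.55) did not pass over all genes (limma adjusted p = 0.317), but it did without M3, at 2.10 (limma adjusted p = 0.00583), in a fit that called 3292 of all genes.

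The same 2 arrays stood apart in a control probe set of the array that belongs to no muscle gene. The probe set for the B1 repeat, a short interspersed element present in many nuclear transcripts, read 11.83, 12.08 and 10.85 in M1, M2 and M3, against 11.02, 10.67 and 10.73 in C1, C2 and C3. M1 and M2 lay above the other 4 arrays for 2 of the 35 muscle genes, Myf6 and Ldb3, and for 16.5% of all genes. The part of the repeat signal in these 2 genes was not tested.

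Other control probe sets differed between arrays too. The 3′ probe set of beta-actin exceeded the 5′ one, a gap that widens as RNA is shortened, by 1.30, 1.08 and 0.57 in M1, M2 and M3, against 1.00, 0.74 and 0.75 in C1, C2 and C3. The same gap for Gapdh was 1.15, 1.04 and 0.88 in M1, M2 and M3, against 1.01, 0.80 and 0.79 in C1, C2 and C3. M1, where most muscle genes were lowest, had the widest gap in both, while C2 and C3 had nearly equal gaps and differed in muscle genes. The 5′ probe set of 18S ribosomal RNA read 9.88, 10.56 and 9.86 in M1, M2 and M3, against 8.53, 7.59 and 7.84 in C1, C2 and C3, so the genotypes did not overlap there. Its brighter middle probe set read 10.79, 11.12 and 11.87 in M1, M2 and M3, against 11.23, 11.43 and 11.38 in C1, C2 and C3. On that probe set the genotypes overlapped, with a difference of -0.091. The part of RNA quality in the levels of the muscle genes was not tested.

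**Figure D2:**
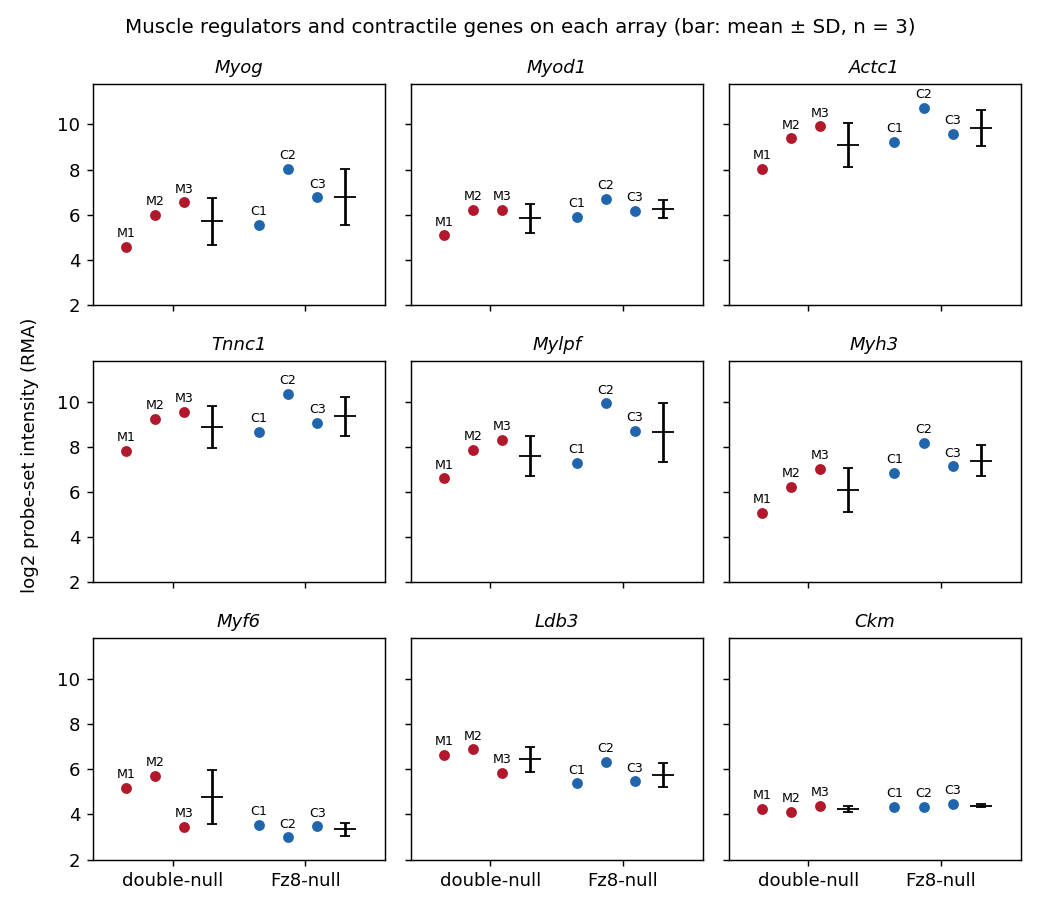
Log2 probe-set intensity of 9 genes on each array, with double-null arrays left and Fz8-null arrays right in each panel, points for single arrays and a bar for the mean ± SD of 3 arrays. Myog, Myod1, Actc1, Tnnc1, Mylpf and Myh3 are highest in C2 and lowest in M1. Myf6 and Ldb3 are higher in M1 and M2 than on the other arrays, Myf6 there near the receptor percentile. Ckm stays between 4.12 and 4.45.

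Of the 10 thin filament genes all had C2 as their highest array and 8 had M1 as their lowest. Actc1, the actin gene of heart and of embryonic skeletal muscle, read 8.02, 9.38 and 9.91 in M1, M2 and M3, against 9.22, 10.73 and 9.58 in C1, C2 and C3. M3 lay above both C1 and C3, so the groups overlapped, and the difference was -0.74 (SE 0.56, limma adjusted p = 0.507). Acta1, the actin gene that replaces Actc1 in mature fibres, read 5.74, 6.13 and 7.43 in M1, M2 and M3, against 5.74, 7.83 and 6.47 in C1, C2 and C3. Here M1 and C1 were equally low, and the difference of -0.25 (SE 0.62, limma adjusted p = 0.849) became 0.33 without C2 and 0.10 without M1.

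Troponin makes the thin filament sensitive to calcium and consists of a calcium-binding, an inhibitory and a tropomyosin-binding subunit. Tnnc1, the calcium-binding subunit of slow and cardiac muscle, read 7.81, 9.25 and 9.53 in M1, M2 and M3, against 8.65, 10.32 and 9.06 in C1, C2 and C3. Tnnc2, its fast counterpart, read 6.23, 6.94 and 7.88 in M1, M2 and M3, against 7.03, 8.64 and 7.39 in C1, C2 and C3. Slow and fast forms thus kept one order, C2 highest and M1 lowest with M3 above C1 and C3. Their differences were -0.48 (limma adjusted p = 0.669) for Tnnc1 and -0.67 (limma adjusted p = 0.520) for Tnnc2. Without C2 or without M1 that of Tnnc1 stood at 0.01 or 0.05.

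The inhibitory subunit genes were less uniform. Tnni1, the slow form, read 6.10, 6.89 and 7.68 in M1, M2 and M3, against 7.26, 7.85 and 7.26 in C1, C2 and C3, with a difference of -0.57 (limma adjusted p = 0.473). Tnni2, the fast form, had M2 as its lowest array: it read 5.92, 5.66 and 7.09 in M1, M2 and M3, against 5.99, 7.18 and 6.75 in C1, C2 and C3 (difference -0.41, limma adjusted p = 0.633). In both genes M3 read above C1 and C3.

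Among the tropomyosin-binding subunits the slow form Tnnt1 read 7.38, 8.01 and 8.35 in M1, M2 and M3, against 7.59, 8.91 and 8.15 in C1, C2 and C3. The fast form Tnnt3 read 6.03, 6.65 and 7.25 in M1, M2 and M3, against 6.73, 7.82 and 7.16 in C1, C2 and C3. Both again placed C2 at the top and M1 at the bottom, and neither difference passed (-0.30, limma adjusted p = 0.689, and -0.59, limma adjusted p = 0.437). Tnnt2, the cardiac and embryonic form, read 3.33, 6.63 and 7.20 in M1, M2 and M3, against 6.50, 7.87 and 6.58 in C1, C2 and C3. Its value in M1 was near the receptor median, whereas M2 and M3 lay above C1. That single array gave Tnnt2 the widest range of the 35 genes, 4.54, and the difference of -1.26 (SE 0.99, limma adjusted p = 0.515) was -0.07 without M1. A further Tnnt2 probe set read 4.15, 5.75 and 6.62 in M1, M2 and M3, against 5.90, 7.23 and 6.17 in C1, C2 and C3, again with M1 lowest and C2 highest. Neb, the giant protein that sets thin filament length, was dim and reached 5.37 in C2. It was 1 of 3 genes whose groups did not overlap, with double-null arrays between 3.30 and 4.18 and Fz8-null arrays between 4.20 and 5.37 (difference -0.85, limma adjusted p = 0.328).

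Myosin chains divided into those with C2 highest and M1 lowest and those without. Mylpf, the regulatory light chain of fast fibres, read 6.60, 7.86 and 8.31 in M1, M2 and M3, against 7.30, 9.92 and 8.71 in C1, C2 and C3. C2 exceeded C1, of the same genotype, by 2.61, which is more than the difference between the genotype means (-1.05, SE 0.70, limma adjusted p = 0.457). Myl4, the light chain of atrial and embryonic muscle, read 6.19, 7.95 and 8.40 in M1, M2 and M3, against 7.71, 9.09 and 7.79 in C1, C2 and C3 (difference -0.69, limma adjusted p = 0.577). A dimmer Myl4 probe set disagreed with it and read 5.20, 5.16 and 4.01 in M1, M2 and M3, against 4.32, 4.21 and 3.99 in C1, C2 and C3, high in M1 and M2 as the B1 repeat was. Myh3, the embryonic heavy chain, read 5.06, 6.21 and 7.01 in M1, M2 and M3, against 6.85, 8.16 and 7.14 in C1, C2 and C3. Its difference was the most negative of the 35, at -1.29 (SE 0.54, limma adjusted p = 0.327), and was -0.90 without C2 and -0.77 without M1. Without M3, in a fit that called 3292 of all genes, it passed at -1.75 (limma adjusted p = 0.0480).

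Myl1, the essential light chain of fast muscle, differed in its low array. It read 6.71, 7.28 and 7.23 in M1, M2 and M3, against 5.60, 8.23 and 6.92 in C1, C2 and C3, so that both extremes belonged to the Fz8-null group. The difference of 0.15 (SE 0.60, limma adjusted p = 0.909) was -0.51 without C1 and 0.81 without C2. Myh8, the perinatal heavy chain, read 6.08, 6.63 and 5.13 in M1, M2 and M3, against 5.21, 6.21 and 5.54 in C1, C2 and C3, with M2 highest. Myh7, the slow and cardiac beta heavy chain, stayed between 5.58 and 6.56 on all arrays (difference -0.11, limma adjusted p = 0.845), and its probe sets shared with Myh6 were not used here. Myl2, the slow and ventricular regulatory light chain, stayed between 3.79 and 4.77.

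Endplate genes carried little of the pattern. Chrna1, the acetylcholine receptor subunit that binds the transmitter, was dim but ordered like the contractile genes, with 3.17, 3.76 and 3.94 in M1, M2 and M3, against 3.86, 5.15 and 4.13 in C1, C2 and C3 (difference -0.76, SE 0.37, limma adjusted p = 0.347). Chrnd, another receptor subunit, ranged over 0.32 and Rapsn, which clusters the receptors, over 0.65. Chrng, the fetal subunit, read 5.70, 5.71 and 5.69 in M1, M2 and M3, against 6.00, 5.92 and 5.92 in C1, C2 and C3. The groups did not overlap, yet the difference was only -0.25 (SE 0.11, limma adjusted p = 0.337) at a level near the receptor percentile. With equal array medians it was -0.07, but that setting also moved the median of all genes from -0.061 to 0.12. On the dimmer Chrng probe sets the groups overlapped, with differences of 0.17 and -0.034.

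Of the Z-disc, M-band and filament genes, Actn2, the alpha-actinin that anchors thin filaments, read 5.72, 5.83 and 6.25 in M1, M2 and M3, against 6.21, 6.86 and 6.17 in C1, C2 and C3. Myom1, a cross-linker of the M-band, read 6.07, 5.77 and 6.63 in M1, M2 and M3, against 6.63, 6.96 and 6.46 in C1, C2 and C3. Des, the intermediate filament of all muscle types, read 7.90, 7.90 and 8.85 in M1, M2 and M3, against 8.91, 8.92 and 8.69 in C1, C2 and C3. In Des, C2 did not stand out from C1, and M3 lay with the Fz8-null arrays. The differences were -0.48 for Actn2, -0.53 for Myom1 and -0.63 for Des (limma adjusted p = 0.353, 0.343 and 0.328). Without M3 those of Des and Myom1 passed, at -0.94 (limma adjusted p = 0.00982) and -0.76 (limma adjusted p = 0.0403), in a fit that called 3292 of all genes.

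Ldb3, a PDZ-LIM protein of the Z-disc, read 6.63, 6.87 and 5.83 in M1, M2 and M3, against 5.38, 6.33 and 5.46 in C1, C2 and C3 (difference 0.72, SE 0.35, limma adjusted p = 0.352). Its other probe sets stayed between 4.06 and 5.74 and did not show M1 and M2 as the highest arrays. Ttn, the elastic filament that spans the sarcomere, read 5.54, 6.31 and 4.70 in M1, M2 and M3, against 6.05, 6.23 and 5.22 in C1, C2 and C3. Neither followed the order of the troponins, and the 5 dimmer Ttn probe sets disagreed. Of these, 2 had M1 and M2 as their highest arrays, 2 had C2 as the highest, and 1 had M2.

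Calcium handling genes were lower on average in double-null arrays without passing the test, and all 3 read highest in C2 and lowest in M1. Ryr1, the calcium release channel of skeletal muscle, read 6.16, 6.40 and 6.58 in M1, M2 and M3, against 6.99, 7.32 and 6.79 in C1, C2 and C3. Its groups did not overlap, and it had the smallest p of the 35 genes, with a difference of -0.66 (SE 0.19, limma adjusted p = 0.314; 95% interval -1.10 to -0.21). Without M3, where 3292 of all genes were called, it passed at -0.76 (limma adjusted p = 0.0395). Casq2, a calcium store protein of slow, cardiac and fetal muscle, read 5.27, 5.89 and 6.29 in M1, M2 and M3, against 6.01, 6.76 and 5.91 in C1, C2 and C3 (difference -0.41, limma adjusted p = 0.518). Cacng1, the gamma subunit of the muscle calcium channel, stayed between 4.52 and 4.91. Ckm, the creatine kinase of mature fibres, stayed between 4.12 and 4.45, below the receptor percentile on all arrays.

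Counted together, 0 of the 35 genes passed an adjusted p of 0.05 over all genes in limma, where 0.0275% of all genes did (5 of 18193; 0.022% lower and 0.0055% higher). The adjusted p of the 35 ran between 0.314 and 0.929. Without M3, 5 of the 35 passed in a limma fit that called 3292 of the 18193 genes, which is a larger share. Array weights weighted M1 by 3.93 and M3 by 0.211. With them 23 of the 35 passed, beside 7576 of the 18193 genes, which is a smaller share. At an unadjusted p under 0.05, limma gave 2 lower (Ryr1 and Myh3) and 2 higher (Myf6 and Pax7), beside 9.23% and 6.05% of all genes. The groups did not overlap for 3 genes, Neb, Chrng and Ryr1, all lower, which is 8.57% of the 35 beside 18.9% of all genes (12.2% lower and 6.68% higher). A negative difference was seen for 28 of 35, or 80.0%, beside 58.1% of all genes. The median difference was -0.41, beside -0.061 over all genes. By role, the lower genes were 2 of 5 regulators, 10 of 10 thin filament and troponin genes, 4 of 7 myosin chains, 4 of 4 endplate genes, 4 of 5 Z-disc, M-band and filament genes, 3 of 3 calcium handling genes and Ckm.

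The ends of the range were held mostly by 2 arrays, singled out after their values were seen. C2 was the highest array for 23 of the 35 genes, or 65.7%, beside 18.6% of all genes. M1 was the lowest for 21, or 60.0%, beside 18.1% of all genes. Both held for 18 genes, or 51.4%, beside 6.25% of all genes. With C2 and M1 left out together, 12 of the 35 genes were lower rather than 28 (57.0% of all genes were), and the median difference was 0.13, beside -0.051 over all genes. Since these arrays were picked as the ends, leaving them out had to move such differences upward. Under that setting the differences of Myog, Mylpf and Actc1 stood at 0.12, 0.079 and 0.25, while those of Ryr1, Des and Myh3 stood at -0.40, -0.43 and -0.38. In whole kidney samples, a different number of muscle cells, any from body wall included, and a different level of these RNAs per cell cannot be told apart.

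**Figure D3:**
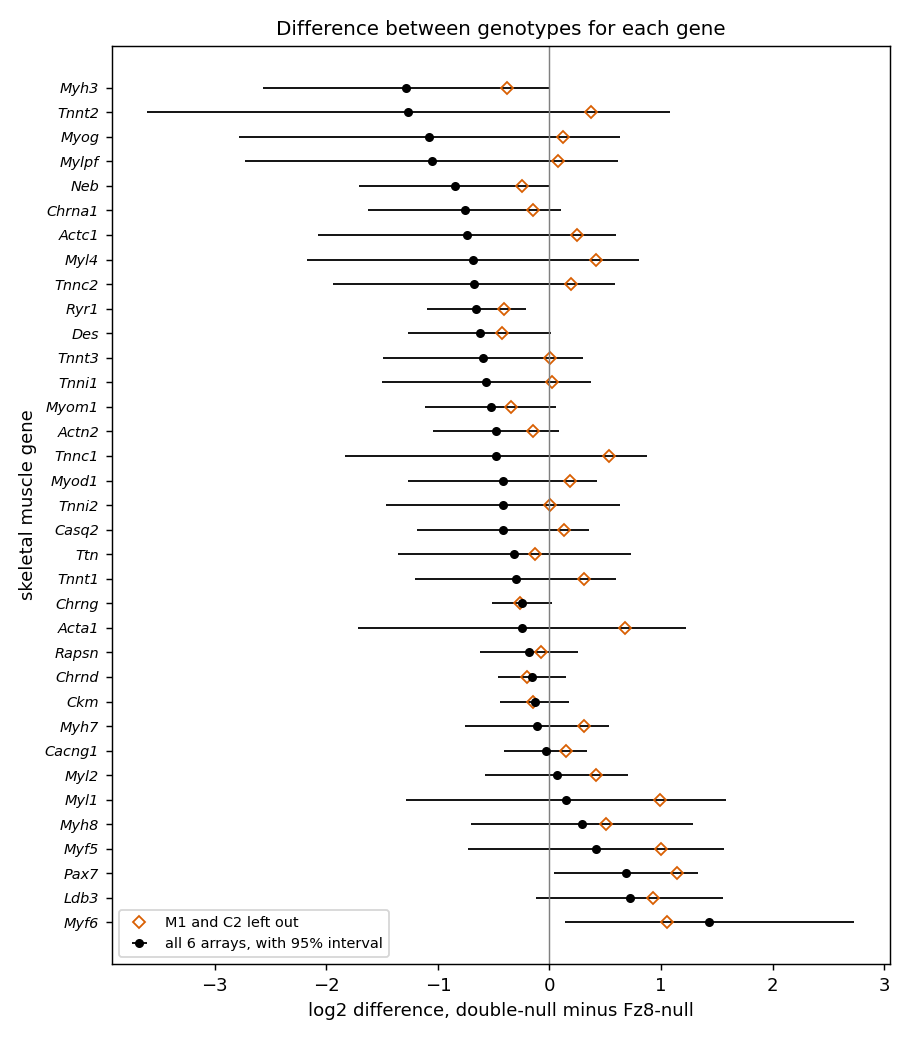
Log2 difference (double-null minus Fz8-null) of each of the 35 genes, with filled points and 95% intervals of the limma fit to all 6 arrays and open diamonds for the fit with M1 and C2 left out. Most filled points lie left of 0 with intervals across it, and 12 of the 35 diamonds lie left of 0.

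Averaged over the 35 genes and set against the Fz8-null mean of each gene, the level was -0.85, -0.13 and -0.0071 in M1, M2 and M3, against -0.37, 0.54 and -0.17 in C1, C2 and C3. The gap between C1 and C2, of the same genotype, was thus larger than the distance of M2 or M3 from the Fz8-null mean. Summed on the linear scale, the 35 probe sets gave 2329.5, 4142.2 and 5475.9 intensity units in M1, M2 and M3, against 3757, 9032.6 and 4633.9 in C1, C2 and C3. By this sum M1 lay below all other arrays, M2 between C1 and C3, M3 above C3, and C2 above all.

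Other skeletal muscle genes, 56 measured of 63 listed, also averaged highest in C2 and lowest in M1, but with M2 below every Fz8-null array. Their mean level was -0.23, -0.19 and -0.054 in M1, M2 and M3, against -0.10, 0.18 and -0.083 in C1, C2 and C3. C2 was the highest array for 41.1% of them, beside 18.6% of all genes, whereas M1 was the lowest for 21.4%, beside 18.1%. None passed over all genes, and 37 were lower (66.1%, beside 58.1% of all genes), with a median difference of -0.096. The groups did not overlap for 11 (19.6%, beside 18.9% of all genes). Of the 4 with the widest range, Smpx, a small protein of muscle fibres, read 4.10, 5.66 and 6.03 in M1, M2 and M3, against 5.12, 6.34 and 5.98 in C1, C2 and C3. Stac3, which couples excitation to contraction, read 4.04, 3.80 and 4.97 in M1, M2 and M3, against 4.56, 5.89 and 5.41 in C1, C2 and C3. Mybph, a myosin-binding protein, spanned 4.18 to 5.91 with M1 lowest and C2 highest. Trdn, a protein of the calcium release complex, went the other way, with 6.93, 6.52 and 4.89 in M1, M2 and M3, against 5.09, 4.91 and 4.87 in C1, C2 and C3, high in M1 and M2 as the B1 repeat was. The smallest p of the list belonged to Mybpc1, the slow myosin-binding protein C, named after its value was seen, which had double-null arrays between 5.54 and 5.77 and Fz8-null arrays between 6.57 and 6.74 (difference -1.03, SE 0.13, limma adjusted p = 0.132).

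The genes outside the set whose profile over the 6 arrays was most like the mean of the 26 brighter muscle genes were sought among 2952 genes with a range of at least 1 and a highest array of at least 6. The 10 closest had Pearson r between 0.93 and 0.98, given as a description of 6 arrays. They were Gjb2, Csrp3, Gnptg, Apobec2, Ablim3, Slc2a12, Nnat, Mcrip2, Lrrc51 and Flad1. Csrp3 encodes the muscle LIM protein and Apobec2 a deaminase family member made in striated muscle. Csrp3 read 5.07, 5.75 and 6.31 in M1, M2 and M3, against 5.67, 6.59 and 5.96 in C1, C2 and C3. Of the other skeletal muscle genes 14 were among those candidates, and 4 of these, Csrp3, Smpx, Pgam2 and Myoz2, had r over 0.9, as did 0.779% of the 2952 candidates.

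By mean level, no other tissue list was highest in C2 and lowest in M1. C2 was the highest array for 36.4% of smooth muscle, 30% of skin and 27.3% of kidney genes, beside 18.6% of all genes. It was so for 16.7% of cardiac, 12.5% of cartilage and tendon, and 0% of liver and neuron genes. M1 was the lowest for 50% of skin, 33.3% of neuron, 27.3% of kidney and 25% of cardiac genes, beside 18.1% of all genes. It was so for 18.2% of smooth muscle, 18.8% of cartilage and tendon and 0% of liver genes. Smooth muscle, which the ureter and vessels contain, had mean levels of 0.17, 0.040 and 0.14 in M1, M2 and M3, against -0.042, 0.14 and -0.097 in C1, C2 and C3, and 0 of 11 genes passed. Cardiac genes had 0.10, 0.18 and 0.20 in M1, M2 and M3, against -0.057, 0.085 and -0.027 in C1, C2 and C3, and 0 of 12 passed. Of the 12 cardiac genes 4 exceeded the receptor percentile on at least 1 array: Tbx20 up to 7.09 in M2, Myl3 up to 6.50 in M2, Tnni3 up to 6.42 in C1 and Myl7 up to 6.10 in M3. The other 8 stayed below it, among them Nkx2-5 (at most 3.90), Nppa (4.56), Myh6 (4.02) and Mybpc3 (4.91). None of the 4 brighter genes had C2 as its highest array. Of the 12, 2 did, Sln and Myh6, both below the percentile. Sln read lowest in M1, at 3.39, and highest in C2, at 5.11, as most troponin genes did. Cartilage and tendon genes, 16 of 17 measured, lay between -0.12 and 0.037 in the double-null arrays, against -0.14 to 0.13 in the Fz8-null arrays.

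Skin epidermis genes also separated the Fz8-null arrays, but in another order. Its 10 measured genes averaged -0.59, -0.46 and -0.55 in M1, M2 and M3, against -0.71, 0.35 and 0.35 in C1, C2 and C3. Krtdap, a keratinocyte differentiation protein, read 4.29, 4.44 and 4.17 in M1, M2 and M3, against 3.97, 7.87 and 7.35 in C1, C2 and C3. Perp, a desmosome protein, read 6.16, 5.99 and 5.37 in M1, M2 and M3, against 5.58, 7.68 and 7.66 in C1, C2 and C3. C2 and C3 were thus alike in epidermal genes, while in muscle genes C3 lay well below C2. Liver genes were high in yet other arrays, at 0.76, 3.28 and 3.61 in M1, M2 and M3, against -0.12, 0.46 and -0.33 in C1, C2 and C3. Neuron and neural crest genes lay at 0.017, 0.60 and 0.35 in M1, M2 and M3, against 0.065, -0.043 and -0.023 in C1, C2 and C3. Kidney markers were present, Ret between 7.75 and 9.51 and Six2 between 6.86 and 8.50 over the 6 arrays, and their mean level was -0.55, -0.77 and -0.25 in M1, M2 and M3, against 0.071, -0.017 and -0.054 in C1, C2 and C3. None of the genes on these lists passed over all genes, and their part in the levels of the muscle genes was not tested.

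**Figure D4:**
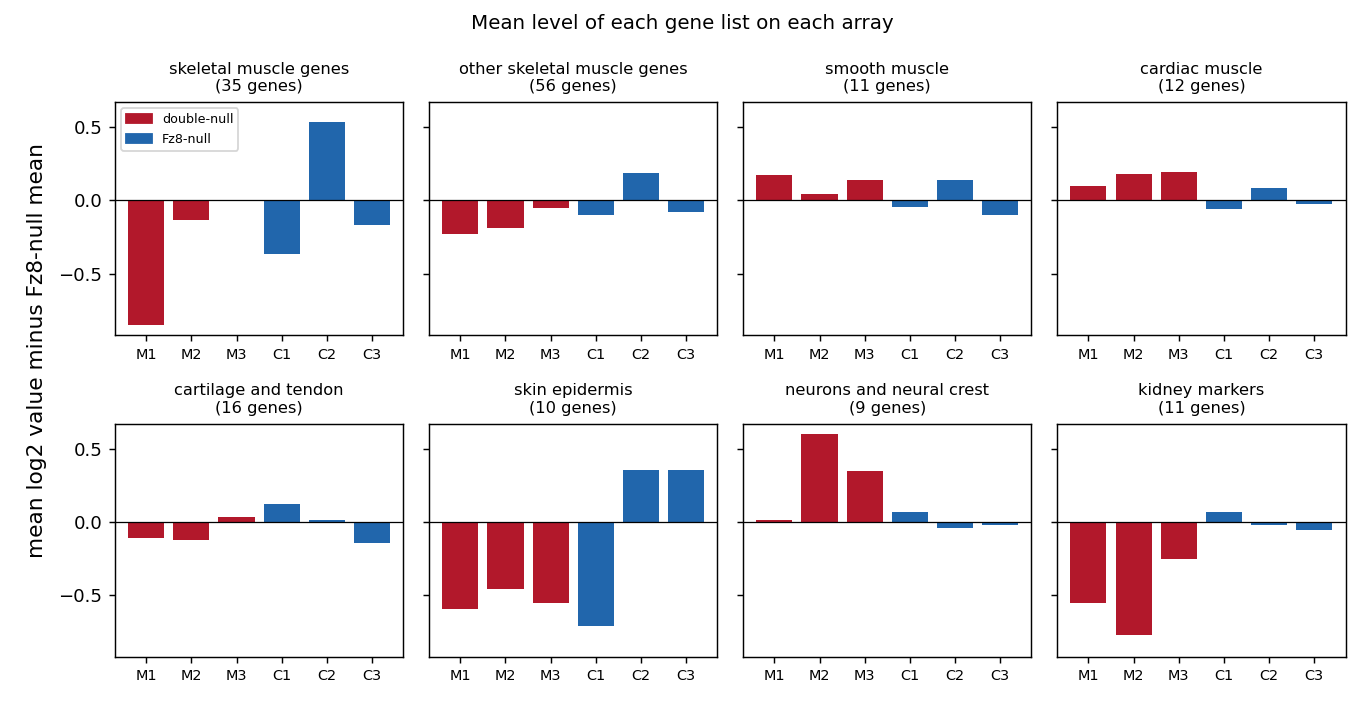
Mean log2 value minus the Fz8-null mean of each gene, per array, for the 35 skeletal muscle genes and 7 other lists, with double-null arrays in red at the left and Fz8-null arrays in blue at the right of each panel. The skeletal muscle genes are lowest in M1 at -0.85 and highest in C2 at 0.54, and the skin epidermis list is highest in both C2 and C3.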

How the data were processed

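The deposited values are log2 probe-set intensities that the authors made with RMA per the submitters' processing notes (version not given in the sources used here) from biotin-labelled cRNA of 100 ng total RNA, per the labels' protocols. Array medians lay between 6.02 and 6.14, and no further scaling was applied. RMA sets the arrays to a common distribution, so a level is relative to the rest of the array. Arrays carry no read depth, so their number limits the precision.

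Of 45101 probe sets, 64 controls were set aside, and 34945 carried 1 gene, 932 several and 9160 none. Double-null minus Fz8-null was fitted with limma 3.58.1 (R 4.3.3, lmFit and eBayes, two-sided), with Benjamini-Hochberg adjustment over 18193 genes at 0.05. The fit was also run on simulated data with independent noise for each gene. Such data hold no differences shared by many genes of an array, so they do not show how the fit behaves with them. The 35 genes and the lists were chosen with earlier results of these data known. Values of all arrays were given for genes with a range of at least 1 and a highest array of at least 6, and for the 5 regulators, and from each other list at most 4 genes of widest range. Chrna1, Chrng, Neb and 5 heart genes were added after their values were seen. Alternatives were quantile normalization, equal medians, a minimum mean of 6, other variance models, array weights, a replicate block, leaving out each array, the mean of all probe sets and an adjusted p of 0.1. Leaving out C2 and M1 together was chosen after seeing the data. Listed genes without a probe set of their own were not used here.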

Additional observations from a re-analysis of the deposited data

How the results depend on the processing

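None of the 35 genes passed in the fit to all arrays, with quantile normalization, equal medians, a minimum mean of 6, either other variance model, the replicate block, the mean of all probe sets or an adjusted p of 0.1. Between 0 and 5 passed when 1 array was left out (5 without M3: Myf6 higher, and Myh3, Des, Myom1 and Ryr1 lower), and 23 with array weights (1 higher, 22 lower), which gave M1 a weight of 3.93 and C2 2.90, against 0.211 for M3. The weighted median difference was -0.91. The count over all genes, 5, was 7576 with array weights, 3 with the replicate block, 1 with the mean of all probe sets, 1 with ordinary least squares, 11 at an adjusted p of 0.1, 12 without C2 and M1, and between 2 (without C3) and 3292 (without M3) when 1 array was left out. The genes without overlap, 3, were 6 with quantile normalization (18.4% of all genes) and 1 of 22 with a minimum mean of 6 (19.3% of all genes). They were 14 without C2 and M1, and between 3 and 17 when 1 array was left out. With fewer arrays to overlap, the share of all genes rose too. It was 39.4% without C1 (7 of the 35) and 23.1% without C2 (5 of the 35). The counts of 14 and 17 are therefore not read as a trait of the muscle genes. The number of lower genes was 12 without C2 and M1, with a median of 0.13 (arrays picked as the ends, so an upward move was built in), and the median stayed between -0.65 and -0.14 when 1 array was left out. The causes of these shifts were not tested. Equal array medians moved the median of all genes to 0.12, so that set's values are to be read against that shift.

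Signs turned for Myl2 with quantile normalization (-0.14), for Myh7, Chrnd, Cacng1 and Ckm with equal medians (0.069, 0.022, 0.15 and 0.047), for Myf5, Myl1 and Myl2 with array weights (-0.099, -0.74 and -0.47) and for Ckm with the mean of all probe sets (0.049). Without C2 and M1 they turned for Myod1 (0.18), Myog (0.12), Actc1 (0.25), Acta1 (0.68), Tnnt1 (0.31), Tnnt2 (0.38), Tnnt3 (0.0034), Tnnc1 (0.54), Tnnc2 (0.20), Tnni1 (0.026), Tnni2 (0.0085), Myl4 (0.42), Mylpf (0.079), Myh7 (0.31), Casq2 (0.13) and Cacng1 (0.15). Leaving out 1 array put Myl1 between -0.51 and 0.81, Acta1 between -0.75 and 0.33, Tnnt1 between -0.62 and 0.046, Tnnc1 between -0.83 and 0.047, Myh7 between -0.32 and 0.17, Cacng1 between -0.13 and 0.073, Myf5 between -0.085 and 0.72, Myl2 between -0.11 and 0.38, Myh8 between -0.051 and 0.70 and Ttn between -0.71 and 0.096. For the other 12 of the 35 genes the sign held in every alternative run. With the replicate block 0 of the 35 passed and the median stayed at -0.41. Same-numbered arrays correlated in their deviations at 0.17, -0.14 and 0.090, so the numbers were taken as names only, and M2 correlated best with C1.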
